A study of Mus musculus with 6 samples.

Results

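The endothelin genes are 7 of the 54532 genes in the expression table, and their members were selected by gene name from the ligands Edn1, Edn2 and Edn3, the receptors Ednra and Ednrb, and the converting enzymes Ece1 and Ece2. Edn3 drew attention to the set because it was among the genes with the higher expression in the Mc4r KO hearts, so its difference between the groups is described here without a test. Heart RNA of 3 Mc4r KO mice and 3 WT mice was sequenced, each mouse giving 1 library. All 6 mice were 12 weeks of age, fed standard chow and on a C57B/6/N background, and the homozygous Mc4r-/- mice and the WT mice were littermates from matings of heterozygotes. The knockout is present in the whole animal and not in the heart alone. The study's text speaks of male mice and of left ventricular tissue, while the sample labels name the tissue as heart and, in their titles, as muscle.

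Endothelins are short peptides that act on neighbouring cells. They are made as long precursors, cut by furin-like proteases to an inactive intermediate, and cut again by endothelin-converting enzymes to the active peptide. In the heart and vessels, the receptor encoded by Ednra lies mainly on smooth muscle cells, cardiomyocytes and fibroblasts, where it drives constriction and growth. The receptor encoded by Ednrb lies mainly on endothelial cells, where it releases nitric oxide and clears endothelin-1 from the blood. Edn3 and Ednrb are best known for guiding the development of melanocytes and of the enteric nerves, and Edn3 binds Ednra much more weakly than Ednrb.

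The unit is FPKM, here the fragments of a gene scaled by its length and by a factor for each library that did not follow the reads counted on genes. Between 14691076 and 16047003 reads were counted on genes per library, and the reads behind each value below were recovered from the steps of the FPKM. Mc4r itself, the gene that was knocked out, was read 2 times in WT replicate 3 and 0 times elsewhere, under the floor of 3 reads, so the expression of the gene does not check the labels. Mitochondrial transcripts took 47.1% to 59.3% of the summed FPKM in WT and 43.0% to 46.6% in Mc4r KO. The cardiomyocyte markers were abundant in every library, with a summed FPKM of 8085 to 8603 in WT and 10616 to 12024 in Mc4r KO. WT replicate 3 stood apart by its atrial genes, with an FPKM of 307 for Myl7, the atrial myosin light chain, against 0.240 and 28.1 in the other WT libraries and 0.528 to 38.8 in Mc4r KO. The differences of Edn3, Ednra, Ednrb, Furin and Grk5 and of the ratio of Edn1 to Ednra are therefore also given without it. Other values include it unless stated. In the fit of all genes, limma on log2(FPKM + 0.1), a gene was called when its adjusted p was under 0.05 and its log2 fold change exceeded 0.75 in size. Of the 18035 genes whose mean FPKM reached 0.1, 83 were called, which is 0.46% of them.

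The sequences before the start of the member genes whose levels separated the groups are shown because they are the stretches from which these transcripts begin. They come from RefSeq, build GRCm38.p6, written 5′ to 3′ on the strand of the gene. Edn3 lies on the plus strand and its stretch is chr2:174760369-174760618. Ednra lies on the minus strand, with chr8:77724465-77724702. Ednrb lies on the minus strand, with chr14:103843702-103843951. This stretch precedes the RefSeq start of Ednrb but lies within the longer span that the expression table gives the gene, outside its annotated exons. The fourth line is a run of 30 bases in the first exon of Edn1, plus strand, chr13:42301484-42301513, and capitals mark the letters of the GATA motif and of the hypoxia response element core.
Edn3 promoter: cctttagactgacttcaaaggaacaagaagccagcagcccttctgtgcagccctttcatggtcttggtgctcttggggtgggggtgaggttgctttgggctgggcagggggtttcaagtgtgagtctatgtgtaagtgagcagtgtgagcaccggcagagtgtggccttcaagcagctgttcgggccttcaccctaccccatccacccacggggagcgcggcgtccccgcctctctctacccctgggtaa
Ednra promoter: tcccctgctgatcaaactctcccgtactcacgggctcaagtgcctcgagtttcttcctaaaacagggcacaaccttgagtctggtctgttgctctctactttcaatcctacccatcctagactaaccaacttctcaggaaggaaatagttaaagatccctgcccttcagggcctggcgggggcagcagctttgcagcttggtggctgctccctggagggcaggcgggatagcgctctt
Ednrb promoter: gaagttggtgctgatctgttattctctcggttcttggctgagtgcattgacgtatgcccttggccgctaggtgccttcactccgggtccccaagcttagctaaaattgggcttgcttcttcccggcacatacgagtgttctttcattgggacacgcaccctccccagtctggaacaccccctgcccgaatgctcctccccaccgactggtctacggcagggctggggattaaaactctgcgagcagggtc
Edn1 first exon: TTATCtctggctgCACGTtgcctgtgggtg
6 motifs were searched on both strands in the 300 bases from 250 before to 50 after each start, and all 7 members matched a RefSeq promoter. The windows of Edn3, Ednra, Ednrb and Edn2 held none of them. The window of Edn1 held GATA (GATAA, read as TTATC) at bases 9 to 13 after the start, the hypoxia response element core (ACGTG, read as CACGT) at bases 22 to 26, and an AP-1 variant (TGACTAA) at bases 37 to 43, whose first letters end the printed run and are left there in lower case. Ece2 held the hypoxia response element core and Sp1 in its window, and the 4 RefSeq starts of Ece1 held Sp1 at 3 of them and the hypoxia response element core at the other. Among all 32851 RefSeq promoters, 25.4% held GATA, 19.6% the hypoxia response element core, 2.35% the AP-1 variant, 7.81% AP-1 (TGANTCA), 35.7% Sp1 (GGGCGG) and 24.9% TATA (TATAA). The 3 motifs found in Edn1 stood together in 50 promoters (0.152%). This set of 3 was taken from the Edn1 window itself, so its share is a description and no test. A match is a stretch of letters and not a shown binding site, and a window without a match says nothing about the factor.

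Edn3, the ligand that favours the B receptor, was the member with the widest gap between the groups. It is ENSMUSG00000027524, chr2:174760619-174784042. Its FPKM was 0.190, 0.626 and 0.0571 in WT replicates 1, 2 and 3, from 11, 37 and 4 reads. In Mc4r KO replicates 1, 2 and 3 it was 2.82, 2.66 and 3.03, from 180, 166 and 200 reads. The groups did not overlap. Relative to the group mean, the WT libraries differed from each other more than the Mc4r KO libraries did (SD of 102% against 6.62% of the mean). The WT values rest on few reads. The group means were 0.291 ± 0.298 in WT and 2.84 ± 0.188 in Mc4r KO (SD, n = 3 each), a ratio of 9.74, and the lowest Mc4r KO library was 4.24-fold above the highest WT library. Exact Poisson intervals, which cover counting error only, were an FPKM of 0.0947 to 0.339, 0.441 to 0.863 and 0.0156 to 0.146 for WT replicates 1, 2 and 3. The interval of WT replicate 2 thus lay above those of the other WT libraries. For Mc4r KO replicate 2 the interval was 2.27 to 3.09. These intervals describe the counting in single libraries and are no test of the difference between the groups, for which Edn3 was chosen. The difference on the log2(FPKM + 0.1) scale was 3.19, and 2.68 without WT replicate 3. It was 1.59 with a pseudocount of 1.

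**Figure D1:**
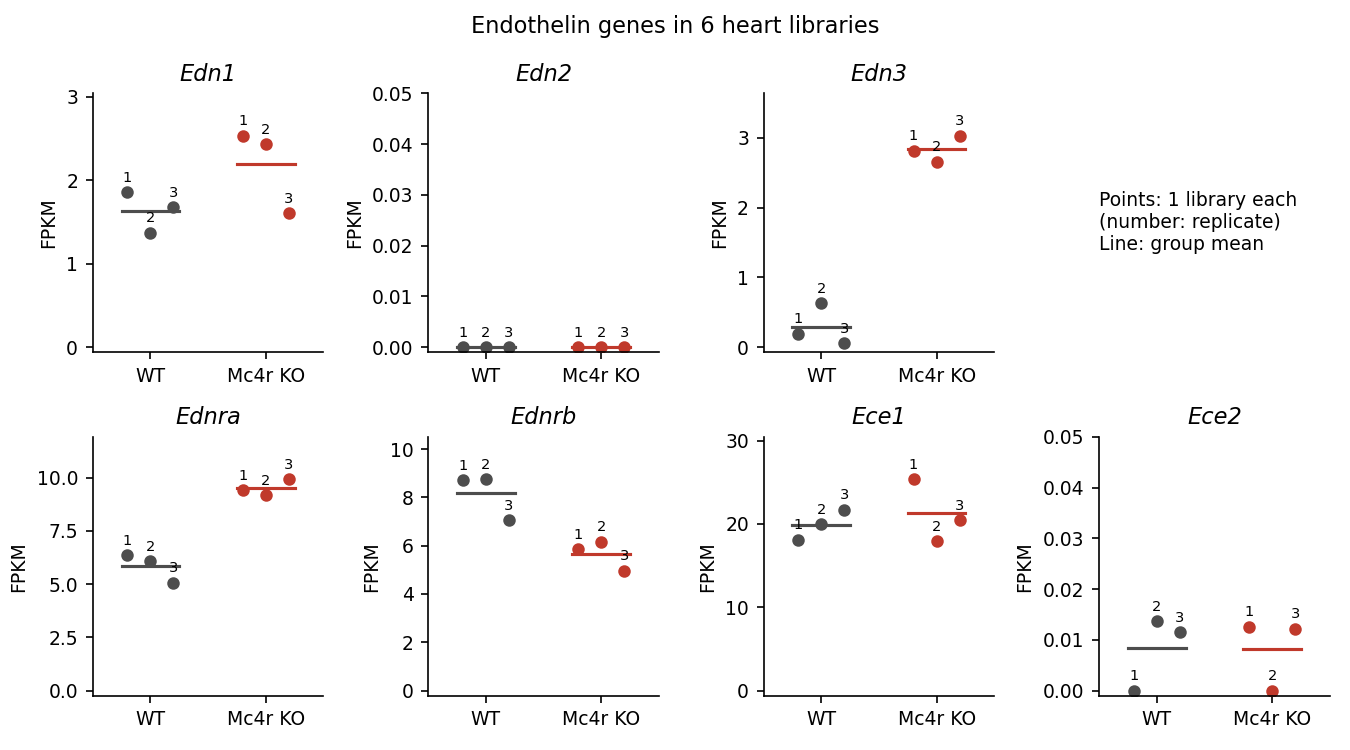
FPKM of the 7 endothelin genes (vertical axes, each from 0) in the WT and Mc4r KO libraries, with 1 point per library, its replicate number and a line at the group mean. The Edn3 points of Mc4r KO lie between 2.66 and 3.03 and those of WT between 0.0571 and 0.626, Ednra and Ednrb also separate, in opposite directions, and Edn1 and Ece1 overlap.

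Edn3 was compared by library with the markers of melanocytes, which are known to use it, and with the atrial markers that set WT replicate 3 apart. Dct, a pigment enzyme of melanocytes, had an FPKM of 0.277, 0.366 and 0.0697 in WT and 0.831, 1.84 and 0.708 in Mc4r KO. Its groups did not overlap in the higher direction, beside 14.1% of all genes. Its adjusted p was 0.108 in limma. Mitf, a transcription factor of melanocytes that other cells also express, was lower in Mc4r KO, at 7.83 to 8.77 in WT and 6.95 to 7.83 in Mc4r KO, with a log2 fold change of -0.19 and an adjusted p of 0.299. Mlana, a melanosome protein, was at a log2 fold change of -2.08 with an adjusted p of 0.440. Its WT replicate 3 stood at 5.56 where the other libraries were at 0 to 0.447. Pmel, another melanosome protein, was at a log2 fold change of 0.15 with an adjusted p of 0.853, and its groups overlapped. Of the 6 melanocyte markers, 4 were tested, with a median log2 fold change of -0.02, and the defining enzymes Tyr and Tyrp1 were at or near 0, at most 0.0278 and 0.116. The summed FPKM of the list was 9.32 to 13.6 in WT and 8.70 to 9.22 in Mc4r KO, most of it Mitf. The part of melanocytes in the Edn3 values was not tested. The 5 atrial markers summed to an FPKM of 28.7 to 798 in WT and 6.29 to 137 in Mc4r KO. Edn3 was lowest in WT replicate 3, where they were highest, but the other libraries did not follow this order. WT replicate 2 had more Myl7 than WT replicate 1 (28.1 against 0.240) and also more Edn3 (0.626 against 0.190). Mc4r KO replicate 1 had the most Myl7 of its group, 38.8, with Edn3 at 2.82, between 2.66 and 3.03 in the other Mc4r KO libraries. The part of atrial tissue was not tested. In these bulk samples, fewer cells of a type and less RNA per cell cannot be told apart.

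**Figure D2:**
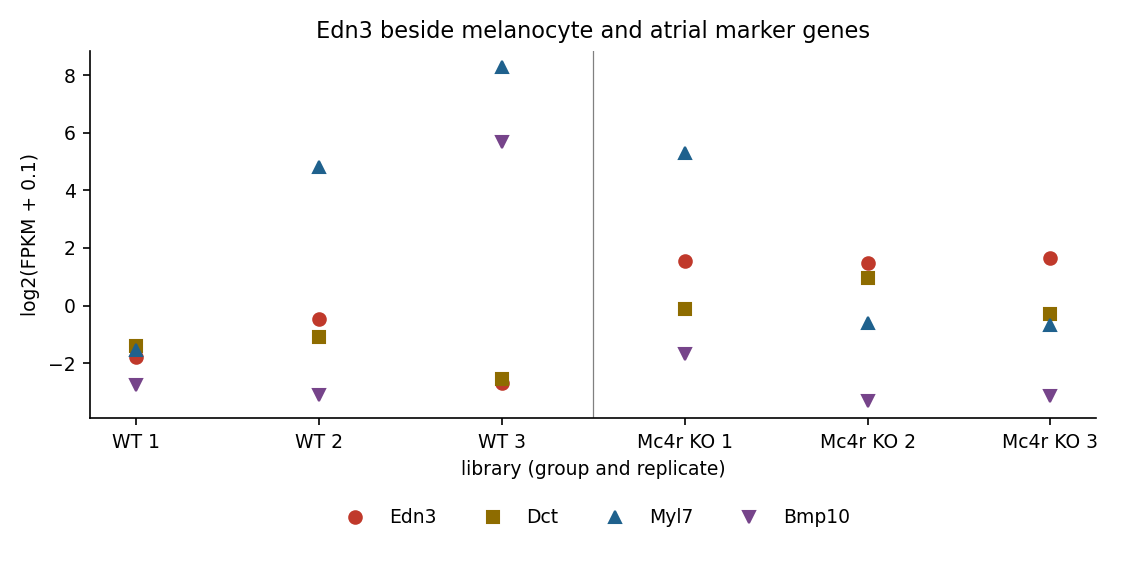
log2(FPKM + 0.1) of Edn3, the melanocyte gene Dct and the atrial genes Myl7 and Bmp10 (vertical axis) in each of the 6 libraries (horizontal axis, WT left and Mc4r KO right of the line), with 1 symbol per gene. Myl7 and Bmp10 are highest in WT replicate 3, where Edn3 and Dct are lowest, but WT replicate 2 is above WT replicate 1 for both Myl7 and Edn3. Edn3 is near the same level in the 3 Mc4r KO libraries, while Myl7 differs among them.

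Edn1, the main endothelin of vessels and a growth signal for cardiomyocytes, did not separate the groups. It is ENSMUSG00000021367, chr13:42301476-42307990. Its FPKM was 1.86, 1.37 and 1.67 in WT, from 56, 42 and 61 reads, and 2.53, 2.43 and 1.60 in Mc4r KO, from 84, 79 and 55 reads. Mc4r KO replicate 3 lay within the WT range and the other Mc4r KO libraries above it. The means were 1.63 ± 0.247 and 2.19 ± 0.509 (SD, n = 3 each). The log2 fold change was 0.38 (SE 0.21, 95% interval -0.10 to 0.87) with an adjusted p of 0.343 in limma. Its exons share 35 bases (1.64%) with the antisense gene Gm47118, and the use of strand in the counting is not given in the sources used here. Edn2, known from the intestine and the ovary, had 0 reads in all 6 libraries, where 3 reads would give an FPKM of 0.120 to 0.146. It is ENSMUSG00000028635, chr4:120161206-120167360, and it was not tested. As a share of the summed FPKM of Edn3 and Edn1, Edn3 took 9.27%, 31.4% and 3.30% in WT and 52.7%, 52.2% and 65.4% in Mc4r KO, a description that follows from the choice of Edn3.

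Ednra, the receptor that drives constriction, was higher in every Mc4r KO library than in any WT library, but it did not pass the test. It is ENSMUSG00000031616, chr8:77663031-77724464. Its FPKM was 6.36, 6.09 and 5.07 in WT and 9.42, 9.18 and 9.93 in Mc4r KO, from 473 to 491 and 764 to 872 reads. The means were 5.84 ± 0.679 and 9.51 ± 0.379 (SD, n = 3 each). The log2 fold change was 0.70 (SE 0.11, 95% interval 0.44 to 0.96), which is 1.62-fold (1.36 to 1.94), with an adjusted p of 0.0522 in limma. The exact permutation test of the 3 against 3 libraries gave p = 0.1, the smallest it can give. Without WT replicate 3 the log2 fold change was 0.60 and the adjusted p 0.0150, still under the fold limit. Its exons share 91 bases (1.66%) with 4933431K23Rik on the opposite strand, whose FPKM was 0.611 to 0.718 in WT and 0.748 to 1.16 in Mc4r KO.

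Ednrb, the endothelial receptor, was lower in every Mc4r KO library than in any WT library, and it did not pass the test either. It is ENSMUSG00000022122, chr14:103814625-103844402. Its FPKM was 8.71, 8.75 and 7.06 in WT and 5.84, 6.16 and 4.97 in Mc4r KO, from 513 to 536 and 340 to 399 reads. The means were 8.17 ± 0.964 and 5.66 ± 0.616 (SD, n = 3 each). The log2 fold change was -0.52 (SE 0.13, 95% interval -0.83 to -0.22) with an adjusted p of 0.102 in limma. Without WT replicate 3 it was -0.62 with an adjusted p of 0.0286. With the mitochondrial share as a covariate it was -0.22, with an adjusted p of 0.663, and Ednra was then at 0.92 with an adjusted p of 0.148. That share did not overlap between the groups, so this fit cannot separate it from the genotype. The 8 endothelial markers summed to an FPKM of 182 to 214 in WT and 191 to 221 in Mc4r KO, the 8 pericyte and smooth muscle markers to 280 to 369 and 252 to 340, and the 5 fibroblast markers to 171 to 178 and 124 to 143. Tie1 and Egfl7 of the endothelial list were higher in Mc4r KO without overlap, beside 14.1% of all genes, and its other genes overlapped. All 8 pericyte and smooth muscle markers overlapped, with Abcc9 at a log2 fold change of -0.44 and Acta2 at 0.43. The largest part of their sum was Rgs5 (mean 185 in WT and 144 in Mc4r KO). Of these lists, the fibroblast sum did not overlap between the groups, and most of it was Dcn (mean 119 in WT and 82.4 in Mc4r KO). Dcn, Lum and Pdgfra were lower in Mc4r KO without overlap, beside 12.4% of all genes. Tcf21 overlapped at a log2 fold change of -0.30, and Col1a1 overlapped at 0.44, the other way. The cardiomyocyte sum, 8085 to 8603 in WT and 10616 to 12024 in Mc4r KO, did not overlap either and was higher in Mc4r KO. Most of it was Actc1 (mean 5178 in WT and 7539 in Mc4r KO) and Myh6 (2457 and 2907). Actc1 and Ryr2 were higher in Mc4r KO without overlap, beside 14.1% of all genes. Myh6, Tnnt2 and Ttn overlapped, with Ttn at a log2 fold change of -0.07. The part of these cell types in the receptor values was not tested.

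Set against each other within a library, Ednrb was the higher receptor in 3 of 3 WT libraries and Ednra in 3 of 3 Mc4r KO libraries. The ratio of Ednra to Ednrb was 0.730, 0.696 and 0.718 in WT and 1.61, 1.49 and 1.998 in Mc4r KO. Ednra made up 41.7% ± 0.585 of the summed receptor FPKM in WT and 62.7% ± 3.50 in Mc4r KO (SD, n = 3 each). This ratio does not depend on the scaling between libraries, and the groups were 1.24 apart on the log2 scale (2.36-fold). The exact two-sided permutation test gave p = 0.1, the smallest that 3 against 3 allows, and 0.2 adjusted over the 2 ratios tested. The log2 ratio of Edn1 to Ednra differed by -0.31 between the groups, with p = 0.4 in the same exact test. It was -0.18 without WT replicate 3 and -0.06 without Mc4r KO replicate 3. The planned ratio of Ece1 to Ece2 could not be formed, since Ece2 was at 0 in 2 libraries.

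**Figure D3:**
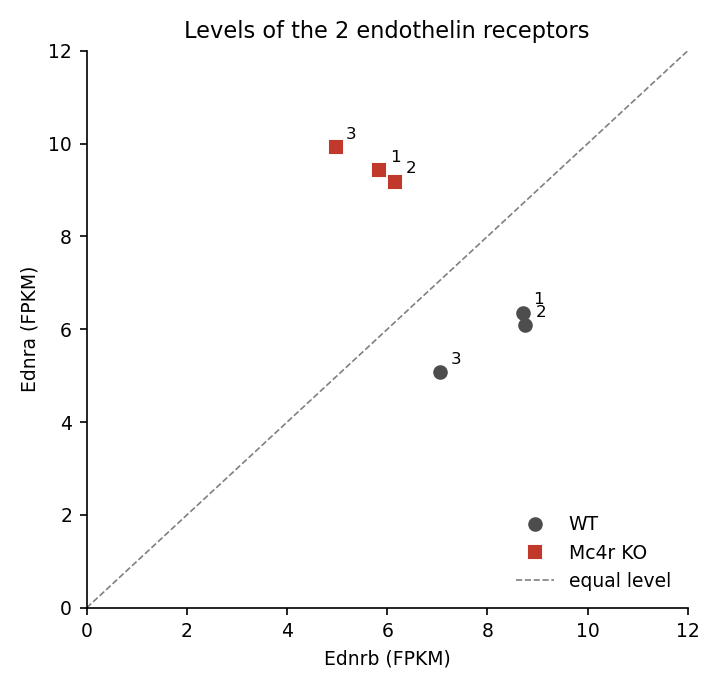
Ednra (vertical axis, FPKM) against Ednrb (horizontal axis, FPKM), with 1 point per library, its replicate number, and a dashed line of equal level. The 3 WT libraries lie below the line, with ratios of 0.696 to 0.730, and the 3 Mc4r KO libraries above it, with ratios of 1.49 to 1.998.

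Ece1, the main enzyme that cuts big endothelin to the active peptide, was the most abundant member and did not separate the groups. It is ENSMUSG00000057530, chr4:137862237-137965229. Its FPKM was 18.1, 19.98 and 21.7 in WT and 25.4, 18.0 and 20.5 in Mc4r KO. The groups overlapped, and the log2 fold change was 0.08 (SE 0.14, 95% interval -0.25 to 0.41) with an adjusted p of 0.779 in limma. Ece2, a converting enzyme of nervous tissue that works at acid pH, had 0, 1 and 1 reads in WT and 1, 0 and 1 in Mc4r KO, under the floor of 3 reads. It is ENSMUSG00000022842, chr16:20629828-20646485, and it was not tested. Of its 5110 exonic bases, 2937 (57.5%) are shared with Gm49333 on the same strand, and Gm49333 was itself at 0 in all libraries. On the 2173 bases that it does not share, 3 reads correspond to an FPKM of 0.0811 to 0.0979. Reads on the shared bases could be lost in the counting.

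By mean FPKM over the 6 libraries, which is a level per length, the order was Ece1 with 20.6, Ednra with 7.68, Ednrb with 6.91, Edn1 with 1.91, Edn3 with 1.56, Ece2 with 0.00832 and Edn2 with 0. The neighbouring pairs were taken from this order, so pair and direction came from the same libraries that were tested. Ece1 was above Ednra in 6 of 6 libraries, 2.75-fold on average. The exact sign-flip permutation test gave p = 0.03125, the smallest that 6 libraries allow, and 0.0469 adjusted over 3 neighbouring pairs. Ednrb was above Edn1 in 6 of 6 libraries, 3.63-fold, with the same p-values. The receptors did not differ beyond their spread over all libraries (exact sign-flip permutation p = 0.594), since Ednra was the higher in 0 of 3 WT and 3 of 3 Mc4r KO libraries. Pairs with Edn3 were not tested because of how it was chosen, nor pairs with Ece2 and Edn2, which were under the floor. Among the genes tested, Ece1 stood at percentile 91.0 of the level, Ednra at 77.8, Ednrb at 75.8, Edn1 at 48.4 and Edn3 at 44.8.

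Counted together, 4 members besides Edn3 were tested and 0 were called in limma, beside 0.46% of all genes, and 0 with limma voom on the recovered reads. An unadjusted p under 0.05 was found for 2 of them, Ednra and Ednrb, beside 20.9% of all genes. The libraries of the groups did not overlap for 1 member that was higher in Mc4r KO (Ednra), beside 14.1% of all genes, and for 1 that was lower (Ednrb), beside 12.4%. Their median log2 fold change was 0.23, and that of all genes was -0.01.

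The genes that make, receive and damp the endothelin signal were followed in 4 lists of 45 genes, of which 41 were tested. In limma 0 were called, and 2, Furin and Grk5, with limma voom on the recovered reads. An unadjusted p under 0.05 was found for 2 genes that were higher and 5 that were lower in Mc4r KO, 17.1% of the tested genes beside 20.9% of all genes. The median log2 fold change was -0.11. In processing and breakdown, with 5 genes tested and a median of 0.25, Furin, the protease that makes the first cut, had an FPKM of 7.26, 8.03 and 9.69 in WT and 14.0, 13.6 and 16.0 in Mc4r KO. Its groups did not overlap in the higher direction, beside 14.1% of all genes, and its log2 fold change of 0.80 had an adjusted p of 0.0535. Without WT replicate 3 Furin was at 0.91 with an adjusted p of 0.00978 in limma, and was called. Pcsk7, a protease of the same family, was at a log2 fold change of 0.25 with an adjusted p of 0.279. Pcsk5, another protease of the family and named after its values were seen, was at -0.52 with an adjusted p of 0.291. Its FPKM was 0.425 to 0.603 in WT and 0.260 to 0.345 in Mc4r KO, without overlap in the lower direction, beside 12.4% of all genes. Pcsk7 shares 7.98% of its exonic bases with Rnf214 on the opposite strand.

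Downstream of the receptors, 20 genes of the Gq, phospholipase C and calcium list were tested, with a median of -0.12. An unadjusted p under 0.05 in limma was found for 3 of them, all lower in Mc4r KO. That is a share of 15%, beside 20.9% of all genes in either direction. The groups did not overlap for 6 of the 20 genes in the lower direction, beside 12.4% of all genes. In the higher direction it was 0, beside 14.1%. Ppp3ca, a catalytic subunit of calcineurin, was at a log2 fold change of -0.39 with an adjusted p of 0.108, and Gnaq, the alpha subunit that couples the receptors to phospholipase C, at -0.34 with 0.135.

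Among the brakes on receptor signalling (8 genes, median -0.03), Grk5, a kinase that switches off receptors, had an FPKM of 7.60, 8.58 and 7.74 in WT and 12.2, 13.1 and 16.6 in Mc4r KO. The groups did not overlap in the higher direction, beside 14.1% of all genes, and the log2 fold change of 0.79 had an adjusted p of 0.0562. Without WT replicate 3 Grk5 was at 0.77 with an adjusted p of 0.0310 in limma, and was called. Grk2, the related kinase, was at 0.20 with an adjusted p of 0.275. Furin and Grk5 crossed the threshold under 5 of the 19 alternative settings, and Furin also with robust variances. In the list of transcription factors known to act on Edn1 (8 genes, median -0.26), Hif1a, which binds the hypoxia response element, was at -0.57 with an adjusted p of 0.107 and Klf2, a factor of endothelial cells under flow, at -0.50 with 0.124. Hif1a shares 5.60% of its exonic bases with Gm15283 on the opposite strand. Edn1 itself was at 0.38.

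**Figure D4:**
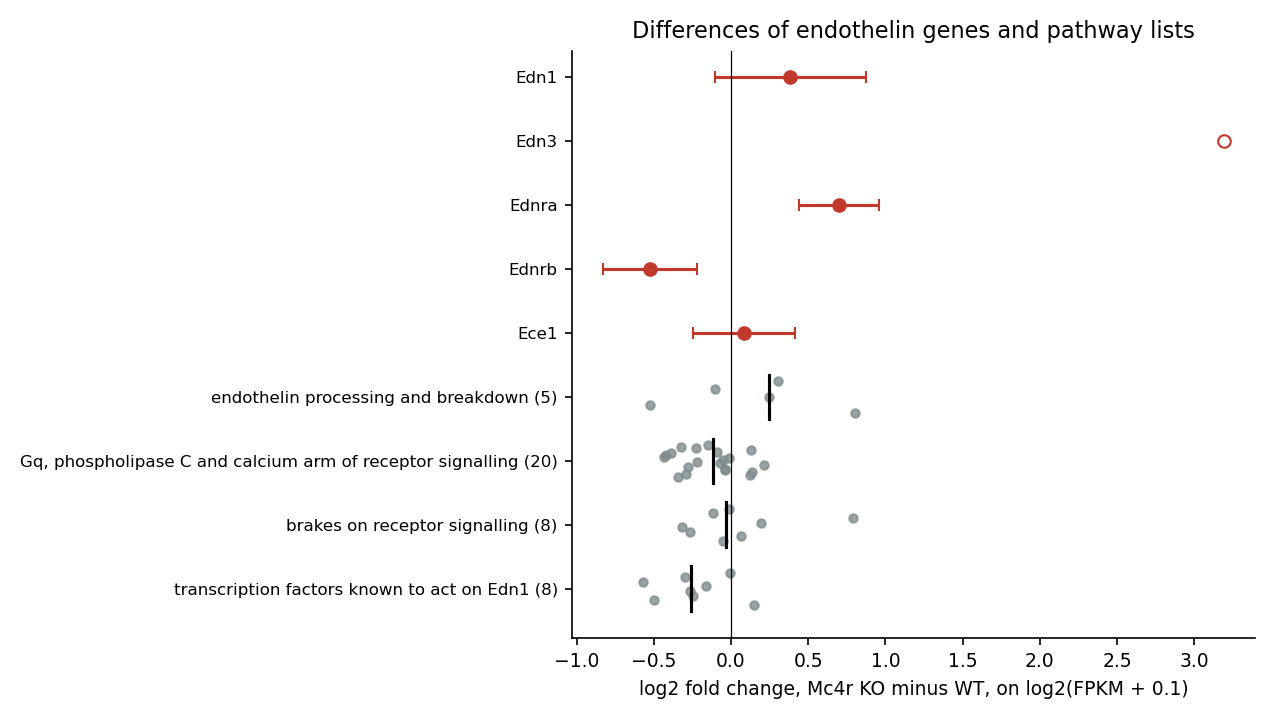
log2 fold change, Mc4r KO minus WT, on log2(FPKM + 0.1) (horizontal axis) for 5 endothelin genes (with 95% intervals, except Edn3 as an open point without one) and for the tested genes of 4 lists (grey points, with a black line at the median of each list and its number of genes in brackets). Ednra lies at 0.70 and Ednrb at -0.52, Edn3 at 3.19, and the list medians lie between -0.26 and 0.25.

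Across the 6 libraries, the genes with the pattern most like Edn3, by Pearson's r on log2(FPKM + 0.1) among 11296 genes whose mean FPKM reached 1, were Slc9a3r2 with r = 0.997, Fam213b with 0.995, Thrsp with 0.994, Rbp7 with 0.993 and Ehd1 with 0.991. The points share the same 6 libraries in groups of 3, so a difference between the groups adds to r, and 87 genes had r above 0.95. Fam213b, for example, had an FPKM of 42.2, 50.4 and 34.8 in WT and 85.8, 82.9 and 83.7 in Mc4r KO, with WT replicate 2 highest among WT as for Edn3. For Ednra the most similar genes were Map4k2 with r = 0.999, Stmn2 with 0.995, AU021092 with 0.995, Med11 with 0.992 and Amd1 with 0.992. Among the members, r was 0.960 between Edn3 and Ednra, -0.728 between Edn3 and Ednrb and -0.788 between Ednra and Ednrb, given as descriptions over the same 6 libraries.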

How the data were processed

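Polyadenylated RNA from heart was sequenced in 6 libraries, 1 per mouse, grouped by the genotype in the labels. The authors aligned the reads with HISAT2 2.0.5 and counted them with featureCounts, build mm10 in the submitters' processing notes. The annotation release and use of strand are not given in the sources used here, and 99.9% of the gene identifiers were found in GENCODE M21. The deposited values are FPKM per gene and library. FPKM times gene length gave whole reads for 100% of the values (tolerance 0.02). Replicates are separate animals.

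The main test was limma 3.58.1 (R 4.3.3) with the empirical Bayes trend on log2(FPKM + 0.1) after median-of-ratios scaling, whose factors were the same in all libraries, with 2-sided p-values and Benjamini-Hochberg adjustment over the 18035 genes whose mean FPKM reached 0.1. The deposited unit is FPKM, and the main test used no count model. Limma voom on the recovered reads called 317 genes, against 83 in the main test. On the log2(FPKM + 0.1) scale the change of genes with low values comes out too small. Levels and ratios within libraries were compared with exact permutation tests, and counting intervals and the floor of 3 reads cover counting error only. The fit was tested on simulated data. The named genes are the 7 members, the 2 tested genes of each list with the smallest unadjusted p, the 5 genes most like Edn3 and the 5 most like the other member with the smallest p, and markers beside a result. The results of 1 list are not reported here. The members and lists were chosen with earlier results of these data known, and the motifs with the printed sequences in view. Alternatives were other pseudocounts, filters, scalings, variance models and covariates, a replicate block, limma voom on recovered reads, protein-coding genes only, and each library left out. Figures used Python 3.11.15 and matplotlib 3.10.9.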

Additional observations from a re-analysis of the deposited data

How the results depend on the processing

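Under 19 alternatives 0 of the 4 tested members were called. Ednra kept its direction (log2 fold change 0.51 to 0.92, adjusted p 0.0111 to 0.185), as did Ednrb (-0.72 to -0.22, 0.0286 to 0.663) and Edn1 (0.20 to 0.59, 0.236 to 0.705), while Ece1 had a positive sign in 15 and a negative sign in 4 (-0.16 to 0.20). The adjusted p of Ednra was under 0.05 in 6 alternatives and that of Ednrb in 3, always below the fold limit of 0.75. Scaling to the FPKM outside the mitochondrial chromosome moved the median of all genes by -0.18, and Ednra was then at 0.51 and Ednrb at -0.72, with the groups of both still apart. The described difference of Edn3 was 1.59 to 4.28, the latter with the mitochondrial share as a covariate. List genes called were 2 (Furin and Grk5) with a mean FPKM of at least 1, array weights, limma voom and protein-coding genes only, 1 with robust variances (Furin), and 0 to 2 with single libraries left out, with 2 only without WT replicate 3. The cause was not tested. In WT libraries alone the log2 ratio of Ednra over Ednrb reversed to -0.48. The count over all genes was 83, 317 with limma voom, 2 with the mitochondrial covariate and 726 without WT replicate 3. Same-numbered libraries correlated at -0.14, 0.01 and -0.08 in their deviations, and libraries of different numbers at -0.03 to 0.12. With 3 libraries per group, such values cannot show whether the numbers pair the mice. With the replicate block, all genes called were 11, and the adjusted p was 0.133 for Ednra and 0.136 for Ednrb. The log2 difference in the ratio of the receptors was 1.12 to 1.33, and that of Edn1 to Ednra -0.46 to -0.06. Depth limits Edn2 and Ece2, which were under the floor.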

Other observations

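Marker lists that stand beside no result above were summed in the same libraries. The 4 endocardium markers summed to an FPKM of 13.4 to 36.3 in WT and 7.63 to 28.1 in Mc4r KO, and the 5 mesothelium and epicardium markers to 4.95 to 28.6 and 5.06 to 7.86. The 5 Schwann cell and glia markers summed to 2.44 to 4.06 in WT and 2.27 to 3.19 in Mc4r KO, and the 4 thymus and lymphocyte markers to 0.0679 to 0.825 and 0.0608 to 0.105. The groups overlapped in each of these 4 lists by this sum.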
